A study of Mus musculus with 6 samples.

Results

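The genes of bile acid synthesis and hepatobiliary transport are described here in mouse hepatocytes before and 48 hours after partial hepatectomy (PHx), an operation in which most lobes of the liver are resected and the remaining liver grows back. The 34 genes were taken by name from textbook knowledge of the pathway, out of 55450 genes in the count files, and fall into 7 roles. There are 7 enzymes of the sterol ring steps, 4 enzymes that shorten the side chain, 2 enzymes of conjugation, 6 uptake carriers of the sinusoidal (blood-facing) membrane, 8 proteins of export at the canalicular (bile-facing) membrane, 5 exporters of the sinusoidal side, and the FGF receptor pair Fgfr4 and Klb. Bulk RNA-Seq was performed on 3 hepatocyte preparations from undamaged liver (0 h) and on 3 preparations collected 48 h after PHx. All mice were C57BL/6 on a normal diet, and the labels give an age of 10 to 12 weeks. In the study's methods the mice are male C57BL/6J and slightly younger. The 0 h mice had no sham operation, so the time after PHx and the response to surgery cannot be told apart. Hepatocytes were released from the liver by a 2-step collagenase perfusion, and nothing in the design separates hepatocytes from different positions in the lobule.

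Hepatocytes make bile acids from cholesterol by a classic route that Cyp7a1 opens and an alternative route that Cyp27a1 opens, conjugate them to taurine or glycine, and pump them into bile with Abcb11. Most bile acids return from the intestine through the portal blood and are taken up again by Slc10a1 and the organic anion transporters of the Slco family. The nuclear receptor FXR (Nr1h4) senses bile acids and raises Nr0b2 (SHP), and intestinal FGF15 signals through Fgfr4 and its partner Klb, both of which restrain synthesis.

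Total gene counts were 31419443 to 36346220 per library, and levels are given as TMM-normalized CPM, in which each library total is first multiplied by a factor from edgeR's trimmed-mean (TMM) method and counts are then scaled to that product. On this scale the floor of 3 counts corresponded to 0.0839 to 0.102 CPM. Pearson's r of log2 CPM was computed across genes, which are not independent replicates. It was 0.989 to 0.994 within a time point and 0.933 to 0.951 between time points. By this measure no library stood apart from its group. The hepatocyte marker Alb stood at 63550 ± 8914 CPM at 0 h and 35070 ± 4029 CPM at 48 h (SD, n = 3), and 7 of the 16 hepatocyte markers were lower and 0 higher at 48 h, with summed levels of 117310 to 134250 CPM and 72906 to 84825 CPM. The defining cholangiocyte markers Krt19, Krt7, Epcam, Cftr and Tspan8 were at or below 0.129 CPM in every library. The whole cholangiocyte list of 14 genes summed to 74.3 to 107 CPM at 0 h and 102 to 138 CPM at 48 h, with 4 of 8 tested genes higher and 1 lower. Without Slc10a2, a transporter described with its values among the other transporters, it summed to 66.3 to 94.8 CPM and 64.0 to 74.5 CPM, with 3 of 7 tested genes higher and 1 lower. The endothelial list summed to 292 to 444 and 211 to 232 CPM (13 of 14 lower), the stellate list to 129 to 202 and 92.0 to 116 CPM (1 of 11 tested higher, 3 lower) and the Kupffer list to 86.5 to 129 and 128 to 155 CPM (4 of 12 higher). Replicate 1 at 0 h had lower endothelial, stellate and Kupffer sums (292, 129 and 86.5 CPM) than the other 0 h libraries. Those stood at 441 to 444, 189 to 202 and 128 to 129 CPM. The neutrophil list did not exceed 1.06 CPM and the lymphocyte list did not exceed 4.39 CPM, with 1 lymphocyte gene tested and lower. Over all genes tested, 21.4% were higher and 19.3% lower. The part of these other cells in the results that follow was not tested. In bulk RNA, fewer cells of a type and less RNA per cell cannot be told apart.

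At 48 h after PHx, most of the bile acid genes stood lower than in undamaged liver, while Cyp7a1 stood higher. Of the 34 genes, 33 had enough counts to be tested (at least 10 counts in at least 3 libraries). By the quasi-likelihood test of edgeR, with p-values adjusted over all 17037 genes tested by the Benjamini-Hochberg method, 21 of them were lower and 4 were higher at an adjusted p under 0.05, and 8 did not pass. Across all genes tested, 19.3% were lower and 21.4% were higher by the same rule, 40.7% in either direction. The fitted log2 fold change was below 0 for 27 of the 33 genes, and its median was -0.64, against -0.00 over all genes tested. A change of at least 2-fold was seen in 11 lower and 3 higher genes, where the background was 7.94% and 9.69%. For 26 of the 33 genes all libraries of one time point lay above all of the other, against 52.7% of all genes. Well-counted genes are called more often, and among the 7564 genes with a mean of 10 CPM or more 23.8% were lower and 25.6% higher, 49.4% in either direction. There were 29 bile acid genes in that range, 21 of them lower and 2 higher. Summed over the 34 genes, the level fell from 12160 ± 261 CPM at 0 h to 6355 ± 514 CPM at 48 h (SD, n = 3). Scaling by library size alone in place of TMM moved the median log2 fold change of all genes by 0.20 and the calls over all genes from 3638 higher and 3288 lower to 5308 higher and 2110 lower. Among the bile acid genes it gave 5 higher and 15 lower.

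**Figure D1:**
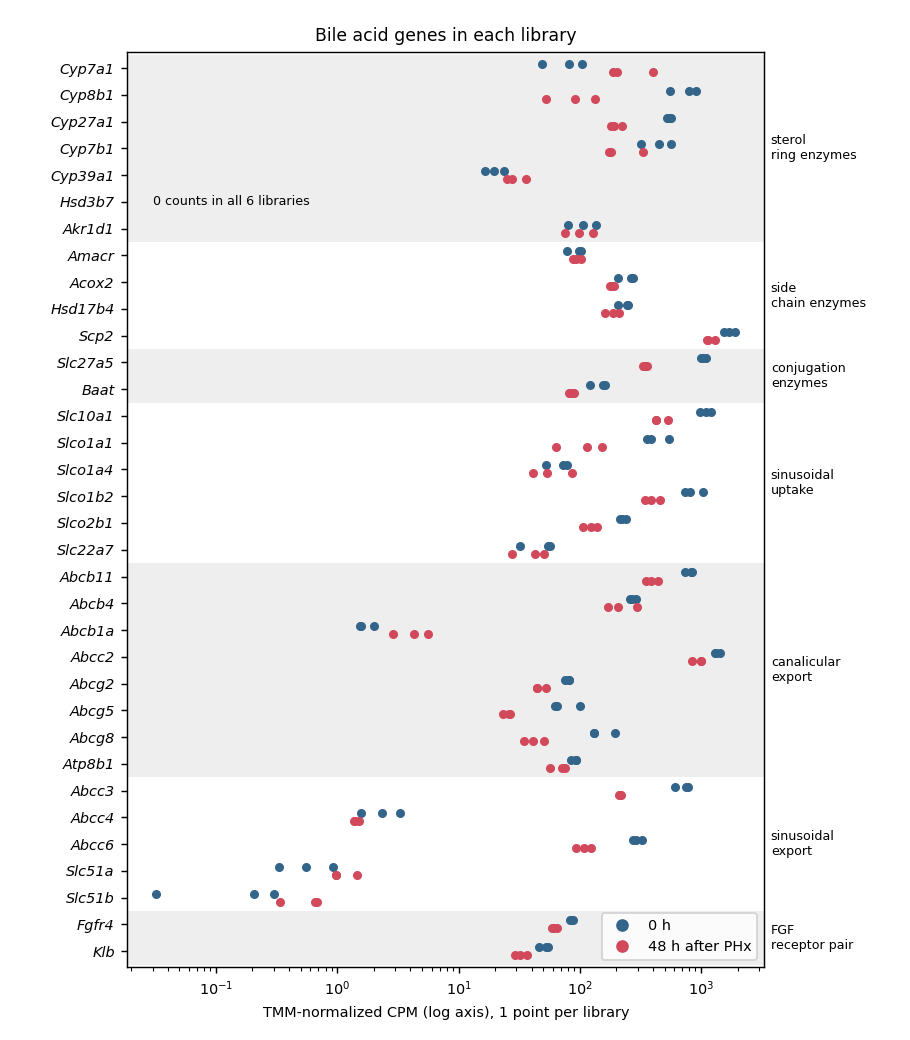
TMM-normalized CPM on a log axis for each of the 34 bile acid genes, grouped by role, with 1 point per library (blue, 0 h; red, 48 h after PHx). The red points lie left of the blue ones for most genes and to the right for Cyp7a1, Cyp39a1, Abcb1a, Slc51a and Slc51b; Hsd3b7 had 0 counts.

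**Figure D2:**
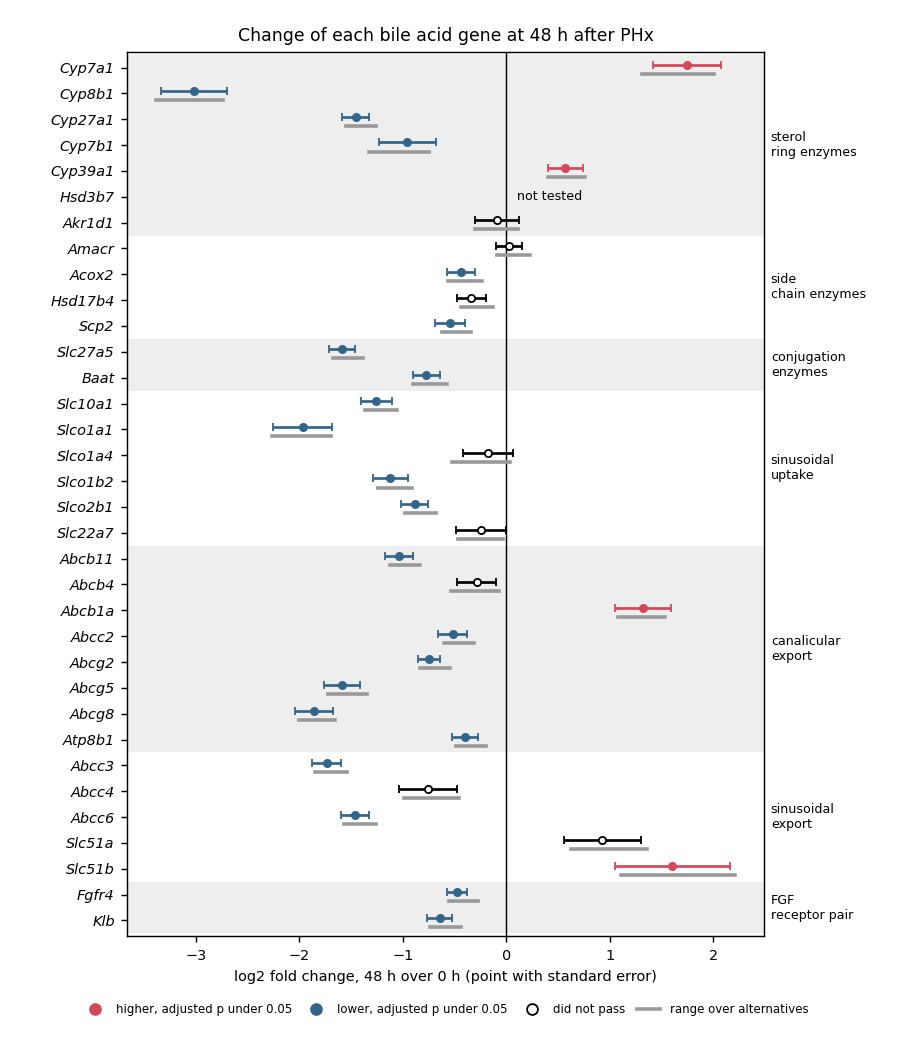
Log2 fold change (48 h over 0 h) of each bile acid gene with its standard error from edgeR, coloured by call at an adjusted p under 0.05, with a grey bar for the range over the alternative analyses. The largest fall was in Cyp8b1 (-3.02) and the largest rise in Cyp7a1 (1.75), and the grey bars of Akr1d1, Amacr and Slco1a4 cross 0.

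The sterol ring enzymes moved in opposite directions, and the widest gap was between Cyp7a1 and Cyp8b1. Cyp7a1 (ENSMUSG00000028240.2; chromosome 4, 6265612 to 6275633, minus strand, GRCm38), the rate-limiting enzyme of the classic route, stood at 81.8, 48.4 and 105 CPM in replicates 1, 2 and 3 at 0 h and at 186, 401 and 201 CPM at 48 h. Every library at 48 h lay above every library at 0 h, and replicate 2 at 48 h was the highest. The gene was 3.36-fold higher at 48 h, with a log2 fold change of 1.75 (standard error of the fit, SE, 0.326, adjusted p = 0.0018, edgeR), and it was the 228th highest of the 7564 well-counted genes in fold change. Its coefficient of variation was 36.1% at 0 h and 45.6% at 48 h, where the median over 29 bile acid genes was 12.5% and 13.1%.

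Cyp8b1 (ENSMUSG00000050445.4; chromosome 9, 121914356 to 121916305, minus strand), which steers intermediates towards cholic acid, went the other way. It stood at 788, 550.0 and 909.7 CPM at 0 h and at 52.5, 134 and 91.1 CPM at 48 h. The time points were far apart, with the highest library at 48 h well below the lowest at 0 h. The gene was 8.11-fold lower (log2 fold change -3.02, standard error 0.317, adjusted p = 4.4e-05, edgeR), the 14th lowest of the 7564 well-counted genes. Per kilobase of exon, the level of Cyp7a1 was 0.0485, 0.0411 and 0.0538 of the level of Cyp8b1 in the 0 h libraries and 1.66, 1.40 and 1.03 of it at 48 h. The order of the levels of these enzymes was thus turned over in all 3 libraries at 48 h, with nearly equal levels in the last of them (1.03). Within the summed level of the sterol ring enzymes per kilobase, Cyp8b1 went from 42.2% ± 6.55 to 13.1% ± 4.44 and Cyp7a1 from 2.05% ± 0.579 to 17.6% ± 6.38 (SD, n = 3).

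Cyp27a1 and Cyp7b1 of the alternative route were both lower. Cyp27a1 (ENSMUSG00000026170.6; chromosome 1, 74713574 to 74737892, plus strand), a mitochondrial enzyme that hydroxylates the side chain and is grouped here with the early steps, stood at 524, 542 and 565 CPM at 0 h and at 223, 191 and 180.3 CPM at 48 h. Its libraries were tight within each time point, and the gene was 2.75-fold lower (log2 fold change -1.46, standard error 0.13, adjusted p = 1.46e-05, edgeR). Cyp7b1, the oxysterol hydroxylase that follows Cyp27a1, had levels of 319 to 568 CPM at 0 h and 173 to 335 CPM at 48 h, which overlapped in 1 library of each time point. Its log2 fold change was -0.96 (adjusted p = 0.0179, edgeR), and the adjusted p became 0.0718 without replicate 1 at 0 h, 0.0545 without replicate 1 at 48 h, 0.0704 without replicate 2 at 48 h and 0.0532 with library size only.

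Of the remaining ring enzymes, Cyp39a1, another oxysterol hydroxylase, was a low gene that rose from 16.5 to 23.8 CPM at 0 h to 25.02 to 36.2 CPM at 48 h. Its log2 fold change was 0.57 (adjusted p = 0.0199, edgeR), with an adjusted p of 0.0801 without replicate 1 at 0 h, 0.0631 without replicate 3 at 0 h and 0.0878 without replicate 1 at 48 h. Akr1d1, the reductase that sets the bend of the steroid ring, had overlapping levels of 80.7 to 136 and 76.1 to 129 CPM and a log2 fold change of -0.09 (adjusted p = 0.764, edgeR) whose sign turned in 3 of 16 alternatives. Hsd3b7, the dehydrogenase of the ring, was counted at 0 in all 6 libraries and was not tested. Other annotated genes cover 99.17% of its exon bases, with Gm49388 over 62.0% on the same strand and 9430064I24Rik over 62.4% on the other, so the count of 0 is no measure of its expression.

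The promoter of Cyp8b1 is shown beside that of Nr0b2, the gene of the repressor SHP, because both are known targets of the liver receptor homolog LRH-1 (Nr5a2). In the RefSeq table (GRCm38.p6), the 250 bases before the start of Cyp8b1 (chr9:121916306-121916555, minus strand) hold a match to the HNF4 motif CAAAGNCCA at -67 to -59 that shares bases with a match to the LRH-1 motif CAAGGNCA at -60 to -53. The window of Nr0b2 (chr4:133553126-133553375, plus strand) holds CAAGGCCA at -201 to -194. Capitals mark matches, on either strand, to the motifs of LRH-1, HNF4, HNF1, C/EBP (TTGNNCAA), the nuclear receptor half-site (AGGTCA) and the FXR inverted repeat, with positions counted back from the first transcribed base, and the sequences are written 5′ to 3′.
Cyp8b1: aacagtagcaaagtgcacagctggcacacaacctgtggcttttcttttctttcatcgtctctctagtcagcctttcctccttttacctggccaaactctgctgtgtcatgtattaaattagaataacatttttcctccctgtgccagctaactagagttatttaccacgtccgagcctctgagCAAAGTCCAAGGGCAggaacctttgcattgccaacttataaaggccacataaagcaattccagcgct
Nr0b2: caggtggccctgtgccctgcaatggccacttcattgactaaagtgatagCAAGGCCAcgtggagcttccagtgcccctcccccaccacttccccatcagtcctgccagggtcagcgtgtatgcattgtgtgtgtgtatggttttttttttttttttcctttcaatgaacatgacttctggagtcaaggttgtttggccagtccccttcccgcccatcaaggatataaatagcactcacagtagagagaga
The LRH-1 motif is present in 5.53% and the HNF4 motif in 1.70% of all 32851 promoter windows of the table. Among 31 windows of the 23 bile acid genes that have one, they were found in 3 (those of Cyp8b1, Abcg2 and Slc51a) and in 1 (that of Cyp8b1). Cyp7a1 is among the genes without a window, so its promoter was not searched. A match describes letters and was not tested as a binding site.

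**Figure D3:**
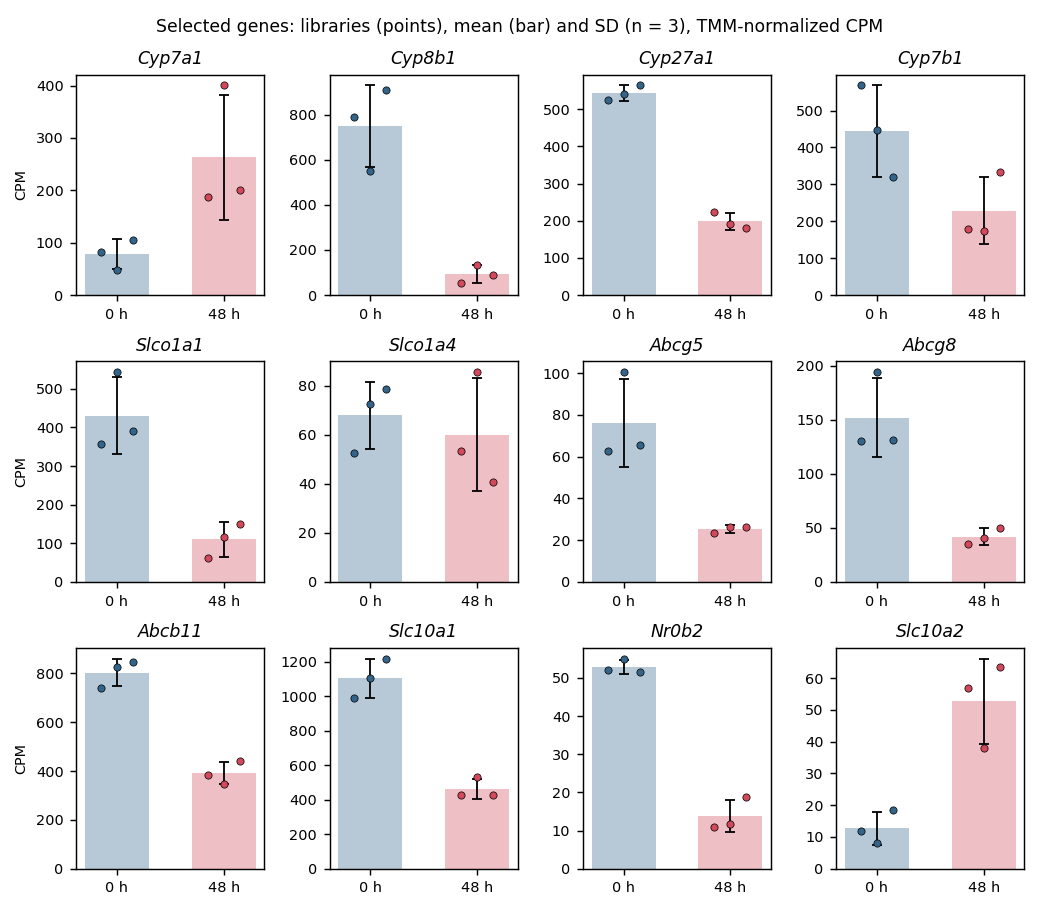
TMM-normalized CPM (linear axes from 0) of 12 selected genes at 0 h and 48 h after PHx, with bars for means, error bars for the SD (n = 3) and 1 point per library. Cyp7a1 and Slc10a2 are higher at 48 h, the points of Slco1a4 and Cyp7b1 overlap between the time points, and the other 8 genes are lower with no overlap.

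Of the 4 side chain enzymes 2 were lower at 48 h, and both conjugation enzymes were lower, where 19.3% of all genes were lower and 21.4% higher. Scp2, whose longer product is the thiolase that cuts the side chain, had the highest level per kilobase of its group and stood at 1922, 1559 and 1714 CPM at 0 h and at 1119, 1144 and 1303 CPM at 48 h. All 3 libraries at 48 h were lower, with a log2 fold change of -0.54 (SE 0.147, adjusted p = 0.0136, edgeR). A share of 29.7% of the 50-base stretches of Scp2 transcripts also occurs in the pseudogene Scp2-ps2, so its count is less certain. The peroxisomal oxidase Acox2 was lower as well, at 206 to 274 CPM against 176 to 191 CPM (log2 fold change -0.44, adjusted p = 0.0244, edgeR). The calls of both were lost with library size only (adjusted p = 0.102 for Scp2 and 0.178 for Acox2) and without replicate 1 at 0 h (0.0576 and 0.0883) or replicate 2 at 48 h (0.0554 and 0.0854), and that of Acox2 also without replicate 3 at 0 h (0.0796) or at 48 h (0.0549).

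The racemase Amacr did not pass (79.0 to 103 CPM at 0 h, 87.7 to 103 CPM at 48 h, log2 fold change 0.02 with a sign that turned in 4 of 16 alternatives, adjusted p = 0.899, edgeR). The peroxisomal bifunctional enzyme Hsd17b4 had a log2 fold change of -0.34 that also missed the threshold (206 to 252 and 159.9 to 210.2 CPM, adjusted p = 0.0751, edgeR). It passed in 5 of 16 alternatives, among them DESeq2 (adjusted p = 0.0484).

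Slc27a5 (ENSMUSG00000030382.15; chromosome 7, 12988346 to 12998192, minus strand), the ligase that activates bile acids with coenzyme A before conjugation, was among the most even genes. Its level was 999, 1030 and 1089 CPM at 0 h and 347, 358 and 331 CPM at 48 h. The gene was 3.01-fold lower in libraries that differed little within a time point (log2 fold change -1.59, standard error 0.127, adjusted p = 6.25e-06, edgeR). Baat, which joins the activated bile acid to taurine, was 1.71-fold lower, at 121 to 162 CPM and 81.1 to 89.3 CPM (adjusted p = 0.000937, edgeR).

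Uptake carriers of the sinusoidal membrane were lower in 4 of 6 cases, beside 19.3% of all genes and 23.8% of those with a mean of 10 CPM or more. Slc10a1 (ENSMUSG00000021135.8; chromosome 12, 80953183 to 80968705, minus strand), the sodium-dependent bile acid carrier NTCP, had the highest level per kilobase of this group at both time points, 502 ± 51.7 and 209.9 ± 27.2 CPM per kilobase (SD, n = 3). It stood at 989, 1108 and 1216 CPM at 0 h and at 429, 531 and 426 CPM at 48 h, so that the highest library at 48 h was well below the lowest at 0 h. The gene was 2.39-fold lower (log2 fold change -1.26, standard error 0.15, adjusted p = 0.000106, edgeR).

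Among the organic anion transporters, which carry bile acids without sodium, the neighbour genes Slco1a1 and Slco1a4 had different calls. Slco1a1 (ENSMUSG00000041698.11; chromosome 6, 141907282 to 141946962, minus strand) stood at 357, 544 and 389.7 CPM at 0 h and at 63.2, 116 and 151 CPM at 48 h. It was 3.91-fold lower (log2 fold change -1.97, standard error 0.284, adjusted p = 0.00036, edgeR), with no overlap. Slco1a4 stood between 52.7 and 78.7 CPM at 0 h and between 40.8 and 85.7 CPM at 48 h, which overlapped (log2 fold change -0.18 with a sign that turned in 2 of 16 alternatives, adjusted p = 0.584, edgeR). The difference between the changes of these genes was not tested. Per kilobase, Slco1a4 was at 0.121, 0.1099 and 0.166 of the level of Slco1a1 at 0 h and at 0.697, 0.610 and 0.222 of it at 48 h, and Slco1a1 remained the higher of both in every library. Of the 50-base stretches of their transcripts, 1.64% and 1.61% occur in other Slco1a genes.

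Slco1b2 (ENSMUSG00000030236.10; chromosome 6, 141629518 to 141686646, plus strand) lies in the same cluster and stood at 739, 1034 and 810.4 CPM at 0 h and at 343, 386 and 459 CPM at 48 h. Its libraries did not overlap, and it was 2.18-fold lower (log2 fold change -1.12, standard error 0.17, adjusted p = 0.000488, edgeR). Slco2b1, a transporter encoded elsewhere in the genome, was 1.85-fold lower (216 to 242 and 106 to 138 CPM, adjusted p = 0.000362, edgeR). The organic anion carrier Slc22a7 had overlapping levels of 32.4 to 56.6 and 27.6 to 51.1 CPM and did not pass (log2 fold change -0.25, adjusted p = 0.45, edgeR).

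The promoters of the Slco genes of this cluster are given because these neighbours, chosen after their values were seen, had different calls, Slco1a1 and Slco1b2 being lower while Slco1a4 did not pass. The windows are chr6:141946963-141947212 for Slco1a1, chr6:141856221-141856470 for Slco1a4 (both minus strand) and chr6:141629268-141629517 for Slco1b2 (plus strand), with the same capitals as above.
Slco1a1: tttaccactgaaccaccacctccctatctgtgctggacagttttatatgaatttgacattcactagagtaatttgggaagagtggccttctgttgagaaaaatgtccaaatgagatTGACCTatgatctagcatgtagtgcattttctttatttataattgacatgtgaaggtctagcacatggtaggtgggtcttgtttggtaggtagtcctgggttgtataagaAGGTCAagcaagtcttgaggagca
Slco1a4: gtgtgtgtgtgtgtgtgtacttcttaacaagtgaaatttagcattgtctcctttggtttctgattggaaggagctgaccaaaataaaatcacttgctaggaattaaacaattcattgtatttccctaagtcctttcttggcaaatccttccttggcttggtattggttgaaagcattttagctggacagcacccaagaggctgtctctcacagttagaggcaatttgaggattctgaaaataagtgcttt
Slco1b2: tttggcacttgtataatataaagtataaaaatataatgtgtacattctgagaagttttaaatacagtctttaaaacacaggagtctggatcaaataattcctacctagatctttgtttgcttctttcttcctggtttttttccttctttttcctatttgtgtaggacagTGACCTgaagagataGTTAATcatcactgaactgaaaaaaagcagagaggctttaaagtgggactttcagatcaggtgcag
The window of Slco1a1 holds the half-site AGGTCA on either strand at -134 to -129 and at -24 to -19. That of Slco1b2 holds it at -81 to -76, beside GTTAAT, one side of the HNF1 palindrome, at -66 to -61. None of the motifs marked by capitals is in the window of Slco1a4. The half-site occurs in 11 of the 31 bile acid windows (35.5%) and in 14.02% of all windows. It is also in the windows of Akr1d1 and Slc51a, which did not pass, and of Slc51b, which was higher, beside those of the lower genes Abcb11, Abcc2, Abcg2, Scp2 and Slc10a1. GTTAAT is in 1 of 31 bile acid windows and in 6.43% of all. Exact matches to the FXR inverted repeat and the full HNF1 palindrome were in none of the 31 windows. They were in only 11 (0.0335%) and 3 (0.00913%) of all windows. Patterns this rare would hardly be met in 31 windows, so their absence does not show that these promoters lack such elements. Near matches were not searched. The half-site of Abcb11 at -56 to -51 lies in a stretch that misses the FXR inverted repeat by 1 base.

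At the canalicular membrane, 6 of 8 genes were lower and 1 was higher, beside 19.3% and 21.4% of all genes. Abcb11 (ENSMUSG00000027048.15; chromosome 2, 69238282 to 69342616, minus strand), the bile salt export pump, stood at 739, 824 and 846 CPM at 0 h and at 385, 349 and 440.1 CPM at 48 h. It was 2.05-fold lower with no overlap (log2 fold change -1.04, standard error 0.139, adjusted p = 0.000225, edgeR). Per kilobase, the ratio of the uptake carrier Slc10a1 to Abcb11 was 3.21 ± 0.129 at 0 h and 2.81 ± 0.671 at 48 h (SD, n = 3), with ranges that overlapped.

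The sterol exporters Abcg5 and Abcg8, which work as a heterodimer and move cholesterol into bile, were lower as well. Abcg5 (ENSMUSG00000040505.13; chromosome 17, 84658234 to 84683011, minus strand) stood at 62.8, 101 and 65.4 CPM at 0 h and at 23.2, 26.1 and 26.5 CPM at 48 h. Abcg8 (ENSMUSG00000024254.15; chromosome 17, 84676302 to 84700333, plus strand) stood at 131, 194 and 131 CPM at 0 h and at 34.8, 40.8 and 50.2 CPM at 48 h. In both genes replicate 2 was the highest at 0 h, and no library at 48 h reached the 0 h range. They were 3.01-fold and 3.62-fold lower, with log2 fold changes of -1.59 (SE 0.174, adjusted p = 5.82e-05) and -1.86 (SE 0.187, adjusted p = 3.3e-05) in edgeR. Small parts of their exons, 3.02% of Abcg5 and 2.19% of Abcg8, overlap on opposite strands. RefSeq gives a start of Abcg8 at 84683121, and 109 bases (chr17:84683012-84683120) lie between it and the start of Abcg5, written here in the direction of Abcg8. Another start of Abcg8, at 84676302, lies inside Abcg5, and no sequence is shown for it. The label intergenic holds only for the start at 84683121, because the stretch lies within Abcg8 when counted from 84676302.
Abcg5-Abcg8 intergenic: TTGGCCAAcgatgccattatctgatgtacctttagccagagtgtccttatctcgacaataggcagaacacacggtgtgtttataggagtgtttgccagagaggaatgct
This stretch holds 1 palindromic C/EBP match, TTGGCCAA, next to the start of Abcg5 (-8 to -1 from it and -109 to -102 from the start of Abcg8 at 84683121). The C/EBP motif is in 5.65% of all windows.

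Abcc2, the canalicular exporter of conjugated organic anions, had the highest mean level per kilobase of the canalicular group, 159 ± 9.40 CPM per kilobase at 0 h and 111 ± 9.89 at 48 h (SD, n = 3). Abcb11 stood at 156 ± 11.02 and 76.0 ± 8.93 CPM per kilobase, so the levels of these genes did not differ beyond their spread at 0 h, where Abcb11 was the higher in replicate 3. Abcc2 stood at 1294, 1446 and 1327 CPM at 0 h and at 848, 997 and 992 CPM at 48 h. The time points did not overlap, with a log2 fold change of -0.52 (SE 0.138, adjusted p = 0.0126, edgeR), and with library size only it was -0.31 (adjusted p = 0.119). Abcg2, a broad exporter, was 1.68-fold lower (75.3 to 81.3 and 44.3 to 52.5 CPM, adjusted p = 0.000325, edgeR). The flippase Atp8b1 was 1.32-fold lower (84.1 to 92.8 and 56.7 to 75.8 CPM, adjusted p = 0.0282, edgeR), a call lost with library size only (adjusted p = 0.22) and without replicate 1 at 0 h (0.0765) or replicate 2 at 48 h (0.12).

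Abcb4, which moves phosphatidylcholine into bile, had 259.5 to 289 CPM at 0 h and 169.8, 206 and 298 CPM at 48 h, where replicate 3 lay above all 0 h libraries. Its log2 fold change was -0.29 (adjusted p = 0.25, edgeR), and without that replicate it was -0.54 (adjusted p = 0.0159). The drug exporter Abcb1a (ENSMUSG00000040584.8; chromosome 5, 8660077 to 8748575, plus strand) was the canalicular gene that rose, at a low level of 1.53, 1.58 and 2.02 CPM at 0 h and 2.88, 4.31 and 5.65 CPM at 48 h. It was 2.5-fold higher with no overlap (log2 fold change 1.32, standard error 0.267, adjusted p = 0.00287, edgeR). A share of 17.6% of its 50-base stretches also occurs in Abcb1b or Abcb4, and Gm42686 overlaps 10.1% of its exon bases on the other strand. The sum of Abcb1a and Abcb1b went from 2.46 ± 0.106 to 6.07 ± 1.97 CPM (SD, n = 3).

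On the sinusoidal side, the well-counted exporters fell and the heterodimer Slc51a-Slc51b stood at a low level. Abcc3 (ENSMUSG00000020865.16; chromosome 11, 94343295 to 94392997, minus strand), which returns conjugates to the blood, stood at 613, 776 and 758 CPM at 0 h and at 212, 217 and 215 CPM at 48 h. The 48 h libraries were nearly equal, with a coefficient of variation of 1.14% against 12.5% at 0 h. The gene was 3.33-fold lower (log2 fold change -1.74, standard error 0.137, adjusted p = 5.72e-06, edgeR). Its level per kilobase was 0.710, 0.804 and 0.855 of that of its canalicular relative Abcc2 at 0 h and 0.374, 0.326 and 0.325 of it at 48 h, so the ratio did not overlap between the time points.

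Abcc6 (ENSMUSG00000030834.7; chromosome 7, 45967555 to 46030302, minus strand), a relative of Abcc3 known for its role in preventing ectopic mineralization, stood at 292, 327 and 275 CPM at 0 h and at 93.0, 108 and 124 CPM at 48 h. It was 2.76-fold lower (log2 fold change -1.46, standard error 0.139, adjusted p = 2.21e-05, edgeR). Abcc4, which exports bile acids together with glutathione, was low, at 1.57 to 3.31 CPM against 1.37 to 1.51 CPM, and missed the threshold (log2 fold change -0.75, adjusted p = 0.0539, edgeR). It passed in 6 of 16 alternatives, among them DESeq2 (adjusted p = 0.0433).

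Slc51b (ENSMUSG00000053862.6; chromosome 9, 65412714 to 65422955, minus strand), the smaller subunit of the exporter OST, had 6, 1 and 10 counts at 0 h and 22, 12 and 24 counts at 48 h, or 0.204, 0.0322 and 0.301 CPM and 0.653, 0.336 and 0.685 CPM. The levels did not overlap, and the log2 fold change was 1.60 (SE 0.555, adjusted p = 0.0408, edgeR). The call was lost without replicate 1 at 0 h (adjusted p = 0.0805), replicate 2 at 0 h (0.0938), replicate 1 at 48 h (0.1) or replicate 3 at 48 h (0.103), and the log2 fold change lay between 1.11 without replicate 2 at 0 h and 2.21 without replicate 3 at 0 h. Its partner Slc51a went from 0.331 to 0.919 CPM to 0.971 to 1.45 CPM and did not pass (log2 fold change 0.93, adjusted p = 0.0711, edgeR). It passed in 4 of 16 alternatives, which were library size only (adjusted p = 0.0306), no filter on low counts (0.0441), the replicate block (0.0439) and the fit without replicate 1 at 0 h (0.0226). Other-strand genes cover 12.8% of the exon bases of Slc51b and 17.7% of those of Slc51a.

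Both parts of the receptor for FGF15 were lower by less than 2-fold, where 19.3% of all genes were lower. Fgfr4, the receptor kinase, stood at 83.0, 87.7 and 86.8 CPM at 0 h and at 61.3, 58.8 and 65.4 CPM at 48 h, 1.39-fold lower with no overlap (log2 fold change -0.47, standard error 0.0979, adjusted p = 0.00325, edgeR). With library size only the log2 fold change was -0.27 (adjusted p = 0.0606). Klb, its co-receptor beta-Klotho, was 1.56-fold lower (45.8 to 54.5 and 29.2 to 37.0 CPM, adjusted p = 0.00176, edgeR). The ratio of Fgfr4 to Klb per kilobase was 2.17 ± 0.141 at 0 h and 2.46 ± 0.419 at 48 h (SD, n = 3). The transcript of the ligand, Fgf15, which is made in the intestine, had at most 0.0286 CPM.

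Among the receptors and regulators of the pathway, the repressor Nr0b2 had the largest change. Of 21 listed genes 17 were tested, 1 was higher and 3 were lower, where the shares over all genes were 21.4% and 19.3%. The median log2 fold change was -0.06. Library size only gave 3 higher and 3 lower genes and a median of 0.14. In that setting 5308 of all 17037 genes were higher and 2110 lower, and the median log2 fold change of all genes moved up by 0.20. Nr0b2 (ENSMUSG00000037583.2; chromosome 4, 133553376 to 133556536, plus strand) stood at 52.1, 55.0 and 51.6 CPM at 0 h and at 11.02, 11.7 and 18.7 CPM at 48 h. The gene was 3.84-fold lower with no overlap (log2 fold change -1.94, standard error 0.183, adjusted p = 2.07e-05, edgeR). Its activator Nr1h4 (FXR) did not pass, at 80.1 to 87.0 and 62.8 to 84.3 CPM (log2 fold change -0.23, adjusted p = 0.171, edgeR). Its log2 fold change ranged from -0.37 to -0.025 over 16 alternatives, and it passed as lower in 1 of them, without replicate 2 at 48 h.

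Nr5a2 (LRH-1), of which Cyp8b1 is a known target, had overlapping levels of 83.8 to 103 and 87.6 to 98.0 CPM. Its log2 fold change was -0.06 (adjusted p = 0.705, edgeR), with a range over the alternatives from -0.15 to 0.14. Hnf4a, a master regulator of hepatocyte genes, had 747 to 865 and 889 to 1023 CPM and a log2 fold change of 0.23 (adjusted p = 0.2, edgeR), which passed with library size only among the 16 alternatives. Onecut1 (HNF6), a regulator of hepatocyte and biliary genes, was 2.35-fold lower, from 214, 107 and 123 CPM to 35.2, 56.6 and 97.4 CPM (log2 fold change -1.23, adjusted p = 0.0161, edgeR). Gm20649 overlaps 52.8% of its exon bases on the same strand, and its call was lost without replicate 1 at 0 h or replicate 2 at 48 h, with an adjusted p of up to 0.0675. The other called genes of this list were Mafg (log2 fold change -0.69), a repressor of bile acid synthesis genes, and Prox1 (0.67), a corepressor.

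**Figure D4:**
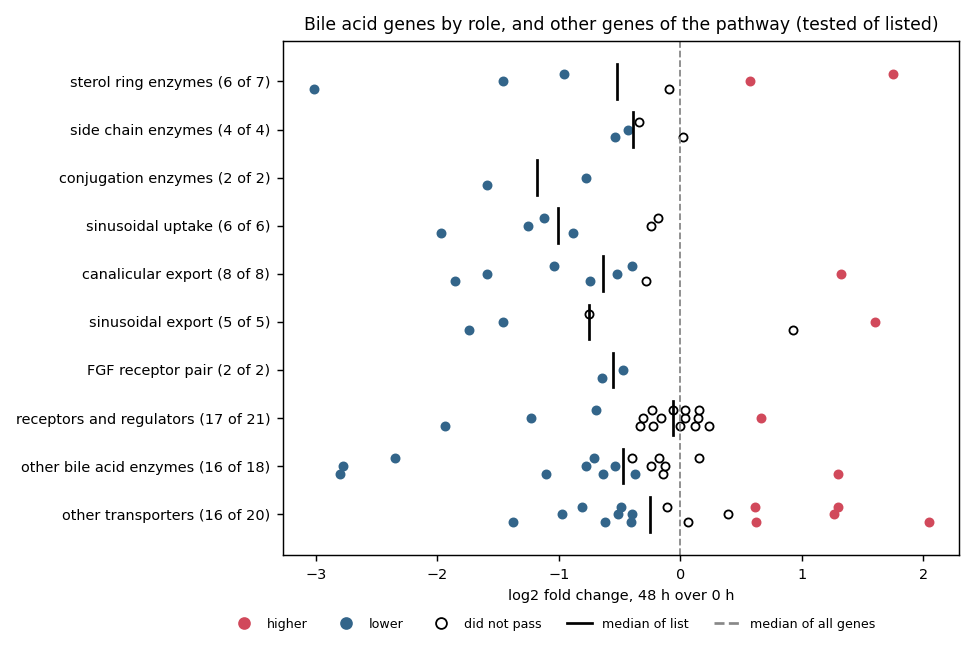
Log2 fold change (48 h over 0 h) of every tested gene of the 7 roles and of 3 further lists of the pathway, coloured by call, with the median of each list as a black line and the median of all genes as a dashed line. The medians of all 7 roles lie left of the dashed line, and that of the receptors and regulators (-0.06) lies closest to it. With library size only, which is not drawn, that list had a median of 0.14 and the median of all genes moved up by 0.20.

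Of the other bile acid enzymes, 16 of 18 were tested, 9 were lower and 1 was higher, where the shares over all genes were 19.3% and 21.4%. The median log2 fold change of the list was -0.47. Library size only left 5 lower and 1 higher, in a setting where 2110 of all genes were lower and 5308 higher. Cyp2c70, the mouse enzyme that makes muricholic acids, stood at 631, 517 and 357 CPM at 0 h and at 345, 281 and 292 CPM at 48 h. Its log2 fold change was -0.71 (SE 0.195, adjusted p = 0.0146, edgeR), and the adjusted p rose to as much as 0.0609 with library size only or without replicate 1 at 0 h or replicate 2 at 48 h. Larger falls were seen in Sult2a8, a hepatic bile acid sulfotransferase, with 385 to 419 and 22.4 to 76.2 CPM (log2 fold change -2.81, adjusted p = 0.0002, edgeR). Acaa1b, a peroxisomal thiolase with a close paralog in Acaa1a, had 214 to 328 and 18.3 to 61.8 CPM (-2.78, adjusted p = 0.000184). The peroxisomal transporter Abcd3, which carries bile acid precursors into the organelle, was at 473 to 568 and 179.7 to 289 CPM (-1.10, adjusted p = 0.000691). Cyp46a1, a cholesterol hydroxylase best known from neurons, was low, at 1.84 to 3.70 and 0.327 to 0.771 CPM (-2.35, adjusted p = 0.00049). The gene that rose was Por, the reductase that passes electrons to microsomal cytochromes P450, from 236 to 339 CPM to 662 to 837 CPM (1.29, adjusted p = 0.000185).

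Of 20 further transporters and membrane scaffold genes 16 were tested, 5 were higher and 8 were lower, beside 21.4% and 19.3% of all genes. Leaving out 1 library gave 3 to 5 higher and 6 to 8 lower genes. The median log2 fold change of these transporter and scaffold genes was -0.25. Library size only left 5 higher and 4 lower, beside 5308 higher and 2110 lower over all genes in that setting. Slc10a2, the apical sodium-dependent bile acid carrier of ileum and bile ducts, stood at 12.0, 8.02 and 18.3 CPM at 0 h and at 56.8, 37.9 and 63.6 CPM at 48 h. It was 4.12-fold higher with no overlap (log2 fold change 2.04, standard error 0.276, adjusted p = 0.000229, edgeR), whereas Slc10a1 of the same family was lower. Slc10a2 is also in the cholangiocyte list, whose members Spp1, Muc1 and Prom1 were higher too, at 0 to 2.52 CPM at 0 h and 0.343 to 7.31 CPM at 48 h, while Pkhd1 of that list was lower (log2 fold change -1.05) and Krt19, Krt7 and Epcam were at or near 0.

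Slc47a1, an exporter of organic cations, was 2.59-fold lower (132 to 161 and 45.4 to 61.0 CPM, adjusted p = 3.77e-05, edgeR). Ezr, the membrane linker ezrin, was 2.45-fold higher at a low level (1.23 to 1.498 and 3.15 to 3.75 CPM, adjusted p = 0.000609, edgeR), and Rdx, the related linker radixin that predominates in hepatocytes, was lower (log2 fold change -0.40, adjusted p = 0.0209, edgeR), a call lost with library size only and without replicate 3 at 0 h or replicate 1 at 48 h. Abcb1b, the sister gene of Abcb1a, was 2.4-fold higher (0.361 to 0.999 and 1.34 to 2.48 CPM, adjusted p = 0.023, edgeR), and its call was lost without replicate 3 at 0 h or at 48 h.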

How the data were processed

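RNA was measured by bulk RNA-Seq in 6 hepatocyte libraries, 3 per time point, grouped by the time and replicate in the labels. The authors deposited raw counts of reads per gene for each library, without normalization. The submitters' processing notes name FastQC 0.11.5, Trim Galore 0.6.4, STAR 2.6, HTSeq 0.12.4, DESeq2 and the build mm10. The counting mode and the strand setting are not given in the sources used here. All gene identifiers are those of GENCODE M21, which gave names, coordinates and exon lengths. Of the reads in the files, 24.3% to 32.7% fell on no gene and 4.27% to 5.29% on several genes, and both were left out.

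Counts were normalized by TMM and tested with edgeR 4.0.16 in R 4.3.3 (glmQLFit and glmQLFTest) with the time point as single term, on the 17037 genes that reached 10 counts in 3 or more libraries, with Benjamini-Hochberg adjustment and a threshold of 0.05. The standard error is the log2 fold change divided by the square root of the F statistic. The code was tested on simulated counts. The alternatives were 4 other normalizations, normalization without mitochondrial genes, DESeq2 1.42.0, limma-voom (limma 3.58.1), 2 other count filters, a 2-fold limit, the replicate number as a block and leaving out each library. Levels of different genes were compared per kilobase of exon. The 50-base stretches of each gene's transcripts were looked up in the transcripts of all other genes.

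Library values are given for genes called with a change of at least 2-fold, for Cyp7a1, Cyp8b1, Abcb11 and Slc10a1, and for the highest gene of each role. From the further lists, values are given for genes called at 2-fold and for Nr1h4, Nr0b2, Nr5a2, Hnf4a and Cyp2c70. Other genes named outside this rule were chosen after their values were seen. The bile acid genes and all lists were chosen with earlier results of these data known. Replicate libraries differed beyond sampling noise (mean chi-square per gene 27.0 or more), and the study describes them as biological replicates. Reads carry no molecular identifiers, so the floor of 3 counts covers counting error only. Promoter windows came from the RefSeq table of GRCm38.p6, which holds 23 of the 34 genes. Protein sequences were not analysed here.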

Additional observations from a re-analysis of the deposited data

How the results depend on the processing

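Across 16 alternative fits, 13 of the 14 genes called at 2-fold or more kept their call at an adjusted p under 0.05 and their direction, the exception being Slc51b, whose call rested on 1 to 24 counts per library. The calls of Abcb11 and Slco1b2 held at an adjusted p under 0.05 but their changes were under 2-fold with library size only (log2 fold changes -0.83 and -0.92) and without replicate 2 at 48 h for Abcb11 (-0.96) or replicate 2 at 0 h for Slco1b2 (-0.98). The bile acid genes numbered 2 to 4 higher and 17 to 22 lower when 1 library was left out, and the 2 were reached without replicate 1 at 48 h, which lost Cyp39a1 and Slc51b. All genes numbered 2649 to 3395 higher and 2540 to 3166 lower in these fits. Library size only gave 2110 lower genes, and the 2-fold limit left 1651 higher and 1353 lower genes, of which 3 and 11 were bile acid genes. That limit lowers the counts by construction.

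Among the 34 bile acid genes, the log2 fold changes of 3 that did not pass turned sign, and the cause was not tested. Akr1d1 was at 0.12 with library size only and between -0.30 and 0.10 without 1 library. Amacr was at -0.056 with upper-quartile factors and -0.027 with TMM from protein-coding genes, and ranged from -0.091 to 0.090 without 1 library. Slco1a4 was at 0.024 with library size only and ranged from -0.53 to 0.037 without 1 library. In the further lists of the pathway the sign turned for Nr5a2, Nr1h2, Nr1h3, Nr1i3, Rxra, Ppargc1a, S1pr2, Star, Stard4, Stard5, Abcc1 and Pdzk1, none of which passed.

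With the replicate number as a block, 5 bile acid genes were higher (Slc51a was added) and 21 lower, and 3237 and 2884 of all genes. Same-numbered libraries came from different mice, and their deviations from the group means correlated at 0.04, -0.09 and -0.17, so the numbers were not used as pairs. Slc51a and Slc51b had few counts (11 to 49 and 1 to 24 per library), and the effect of depth on them was not tested. Slc51b was left out when 1 CPM in 3 libraries was required.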
